A study of Mus musculus and Homo sapiens with 8 samples.

Results

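The T lineage transcription factors described here are 9 genes, Tcf7, Lef1, Gata3, Bcl11b, Runx1, Runx3, Tox, Satb1 and Ikzf1, chosen by name from the 30854 gene rows of the thymus arrays, where they are listed as TCF7, LEF1, GATA3, BCL11B, RUNX1, RUNX3, TOX, SATB1 and IKZF1. The study asked how loss of TRAF6, a ubiquitin ligase of immune signalling, bears on the p53 response to ionising radiation. RNA was hybridised to 5 Illumina bead arrays, of which 2 came from irradiated mice labelled TRAF6 null, 2 from irradiated wild-type mice and 1 from unirradiated wild-type mice. All 5 carried RNA of cells of the thymus from CD-1 mice aged 2.5 weeks, and the irradiated mice had received 15 Gy with a treatment time of 10 h. The design has no unirradiated TRAF6 null array, the labels do not describe the null allele, and nothing says if arrays of one group stem from different mice. The p-values therefore measure the spread between these arrays, which may be technical.

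A progenitor that enters the thymus becomes a T cell in steps, and these factors act along that path. Notch signalling switches on Tcf7, which encodes TCF-1, and Gata3. Bcl11b then closes off the other fates, and Runx1, Runx3, Tox, Satb1 and Ikzf1 shape the later choice between CD4 and CD8 cells and the chromatin in which it is made. The cortical thymocytes that express most of these genes are among the most radiosensitive cells of the body.

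Values below are log2 signals, background-corrected and quantile-normalized, and differences are on the same log2 scale with their standard error (SE) from limma. A gene was tested where its detection p was under 0.01 on at least 2 of 5 arrays, which 11563 rows and 7 of the 9 factors met, and was called at a Benjamini-Hochberg adjusted p under 0.05 over all of those rows. A gene detected only on the lone unirradiated array could therefore not be tested, while a gene detected only on irradiated arrays could. Rag2, above background only on the unirradiated array, was not tested. Median bead numbers per row were 41 to 43, and the bead standard error of the factors' own signals was 2.80% to 5.10% of the signal. The number of arrays limits the precision. Arrays correlated across the tested rows at 0.972 within the TRAF6 null label, 0.988 within irradiated wild type and 0.866 to 0.887 between groups. Traf6 itself, the gene named in the label, had log2 signals of 9.04 and 8.62 on the arrays labelled TRAF6 null, 7.68 and 7.74 on irradiated wild-type arrays and 8.11 on the unirradiated array. It was thus 2.18-fold higher with the TRAF6 null label than in irradiated wild type (adjusted p = 0.0121, limma). Which part of the transcript its probes read is not given, so this row does not check the label, and the arrays are named by their label throughout.

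Between irradiated arrays, 3 of the 7 tested factors were lower with the TRAF6 null label and 0 were higher: Bcl11b fell by 1.76, Runx1 by 0.92 and Tcf7 by 0.71 on the log2 scale. At an unadjusted p under 0.05 the counts were 4 and 0. Of all rows tested, 43.7% were called in this comparison, 22.9% lower and 20.9% higher. The split depends on scaling, with 2646 rows lower and 2412 higher here but 4340 lower and 1233 higher in the authors' matrix, where 6 of the 7 factors were called lower. The median of the 7 factors was -0.71, against -0.027 over all rows. The 2 groups did not overlap in 5 of the 7 factors, each lower with the TRAF6 null label, against 39.6% of all rows that separated in that direction and 37.6% in the other. The count was 0 without either irradiated wild-type array and 6 without the first TRAF6 null array.

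In irradiated against unirradiated wild-type thymus, 4 of the 7 were lower and 0 higher, namely Tcf7, Gata3, Runx1 and Tox (5 and 0 at an unadjusted p under 0.05). Of all rows, 36.1% were called, 17.6% lower and 18.5% higher. All 7 factors were lower on both irradiated wild-type arrays than on the unirradiated array, as were 43.9% of all rows, while 48.2% were higher on both. Their median was -0.89, against 0.051 over all rows. The count was 0 without either irradiated wild-type array, and the unirradiated group is 1 array whose spread is taken from the other groups.

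Across the widest contrast, irradiated arrays labelled TRAF6 null against the unirradiated wild-type array, 5 factors were lower and 0 higher: Bcl11b, Tcf7, Runx1, Gata3 and Tox (7 and 0 at an unadjusted p under 0.05). Of all rows, 28.5% were called, 14.9% lower and 13.5% higher. The factors' median was -1.38, against -0.025 over all rows, and all 7 lay below the unirradiated array on both arrays, as did 43.9% of all rows, while 40.3% lay above it. The 3 comparisons share arrays and are given side by side, not as separate evidence. The count was 2 without either irradiated wild-type array and 7 without either TRAF6 null array. In whole-tissue RNA such as this, fewer cells of a type and less RNA per cell cannot be told apart.

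**Figure D1:**
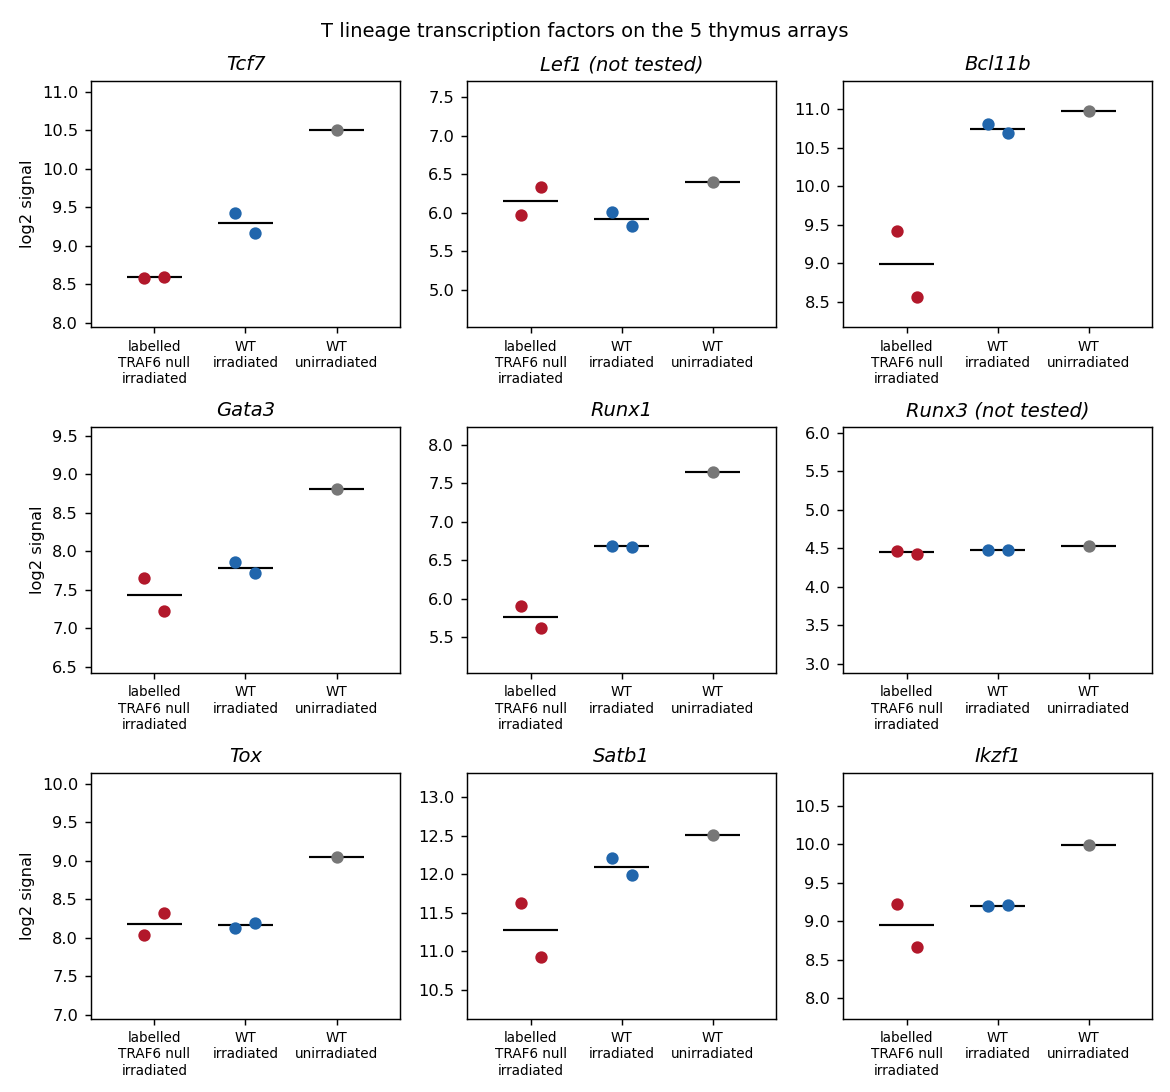
The log2 signal of each T lineage transcription factor is plotted for every array, with the arrays labelled TRAF6 null (irradiated) on the left, irradiated wild type in the middle and unirradiated wild type on the right; points are arrays, lines are group means, and all panels span the same number of log2 units. Tcf7, Runx1 and Bcl11b lie lowest on the arrays labelled TRAF6 null, Tox lies between 8.04 and 8.32 on all 4 irradiated arrays, and Runx3 is at background throughout.

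Among the HMG-box factors, Tcf7 encodes TCF-1, which opens chromatin at T cell genes in early progenitors. Its log2 signal was 8.58 and 8.60 on the arrays labelled TRAF6 null, 9.43 and 9.17 on irradiated wild-type arrays and 10.51 on the unirradiated array. The 3 groups formed 3 separate steps, with the TRAF6 null label lowest. Tcf7 was 1.64-fold lower with the TRAF6 null label than in irradiated wild type (-0.71 ± 0.17 SE, adjusted p = 0.0249, limma, and 0.0512 with limma's own inference of the background). It was 2.31-fold lower in irradiated than in unirradiated wild type (-1.21 ± 0.20 SE, adjusted p = 0.0141) and 3.78-fold lower in the widest contrast (-1.92 ± 0.20 SE, adjusted p = 0.00912).

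Lef1, the close relative of TCF-1 that can stand in for it in later thymocytes, was dim. Its deposited signals of 138.3 and 160.7 on the arrays labelled TRAF6 null, 164.3 and 148.5 on irradiated wild-type arrays and 167.5 on the unirradiated array were all above the 99th percentile of the negative controls, estimated at 124.9 to 130.5. It was not tested, because its detection p, an average over the probes of the gene, lay between 0.01793 and 0.05411. With no filter on detection its difference was 0.23 ± 0.16 SE between irradiated groups (adjusted p = 0.469, limma), and the groups overlapped.

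Tox, an HMG-box protein needed for CD4 cells to develop, gave another pattern. Its log2 signal was 8.04 and 8.32 on the arrays labelled TRAF6 null, 8.13 and 8.20 on irradiated wild-type arrays and 9.05 on the unirradiated array. All 4 irradiated arrays lay within one narrow band, below the unirradiated one, and the irradiated groups overlapped. The difference between irradiated groups was 0.016 ± 0.17 SE, with a 95% interval of -0.43 to 0.46 (adjusted p = 0.944, limma). Its sign turned to -0.25 with median scaling and to -0.36 in the authors' scaling. Against the unirradiated array Tox was 1.83-fold lower with the TRAF6 null label (adjusted p = 0.0385) and 1.85-fold lower in irradiated wild type (adjusted p = 0.0308, and 0.0885 in the authors' matrix). With limma's own inference of the background these differences were -0.58 and -0.59 on the log2 scale.

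Among the zinc finger factors, Bcl11b, which commits a progenitor to the T lineage, carried the largest difference between irradiated groups of the 7 tested factors. Its log2 signal was 9.42 and 8.56 on the arrays labelled TRAF6 null, 10.81 and 10.69 on irradiated wild-type arrays and 10.98 on the unirradiated array. Both TRAF6 null arrays were low, though they lay apart from each other (SD 0.61), while the 3 wild-type arrays lay close together. Bcl11b was 3.40-fold lower with the TRAF6 null label than in irradiated wild type (-1.76 ± 0.31 SE, 95% interval -2.57 to -0.96, adjusted p = 0.0122, limma). Its adjusted p was 0.0775 and 0.0784 without the first and the second irradiated wild-type array, in a range of 0.00354 to 0.0784 over 14 alternatives. In irradiated against unirradiated wild type the difference was -0.23 ± 0.38 SE, and its interval of -1.22 to 0.76 includes changes in either direction (adjusted p = 0.665). In the widest contrast it was 3.98-fold lower (adjusted p = 0.0229, and 0.0536 with limma's own inference of the background).

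Gata3, a GATA zinc finger protein required from the first thymic stages and again for CD4 cells, had log2 signals of 7.65 and 7.22 on the arrays labelled TRAF6 null, 7.86 and 7.72 on irradiated wild-type arrays and 8.82 on the unirradiated array. The step lay between the irradiated arrays and the unirradiated one. Gata3 was 2.04-fold lower in irradiated than in unirradiated wild type (-1.03 ± 0.25 SE, adjusted p = 0.0333, limma) and 2.6-fold lower with the TRAF6 null label than in unirradiated wild type (adjusted p = 0.0203). With limma's own inference of the background these differences shrank to -0.54 (adjusted p = 0.0254) and -0.64 (adjusted p = 0.0263), and without either irradiated wild-type array both calls were lost (adjusted p of 0.13 and 0.175 for the first and 0.0725 for the second). Between irradiated groups the difference was -0.35 ± 0.20 SE with an interval of -0.88 to 0.18 (adjusted p = 0.217).

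Ikzf1 encodes Ikaros, a zinc finger protein of all lymphocytes that restrains Notch target genes in thymocytes. Its log2 signal was 9.23 and 8.67 on the arrays labelled TRAF6 null, 9.20 and 9.21 on irradiated wild-type arrays and 10.00 on the unirradiated array. The first TRAF6 null array matched the irradiated wild-type arrays and the second lay below them. No comparison passed for this row: the differences were -0.25 ± 0.23 SE between irradiated groups (adjusted p = 0.407, limma), -0.79 ± 0.28 SE in irradiated against unirradiated wild type (adjusted p = 0.0844) and -1.04 ± 0.28 SE in the widest contrast (adjusted p = 0.0506). A second row, listed under the older name Zfpn1a1, gave 9.24 and 8.52 on the arrays labelled TRAF6 null, 9.23 and 9.22 on irradiated wild-type arrays and 10.24 on the unirradiated array. In both of these rows the first TRAF6 null array lay with the irradiated wild-type arrays and the second below them, and the Zfpn1a1 row passed in the widest contrast (-1.36 ± 0.33 SE, adjusted p = 0.0402). A further row of the gene, listed under the older name Znfn1a1, was below background on all arrays and was not tested.

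Runx1 and Runx3 are runt-domain factors that bind DNA with the partner subunit CBFβ. Runx1 acts from early thymocytes on, and Runx3 silences Cd4 in cells of the CD8 lineage. The log2 signal of Runx1 was 5.91 and 5.62 on the arrays labelled TRAF6 null, 6.69 and 6.68 on irradiated wild-type arrays and 7.65 on the unirradiated array. As with Tcf7, the 3 groups formed 3 separate steps. Runx1 was 1.89-fold lower with the TRAF6 null label than in irradiated wild type (-0.92 ± 0.17 SE, adjusted p = 0.014, limma), 1.96-fold lower in irradiated than in unirradiated wild type (adjusted p = 0.0252, and 0.0896 in the authors' matrix) and 3.71-fold lower in the widest contrast (adjusted p = 0.00964). Its deposited signals on the arrays labelled TRAF6 null, 136.4 and 133.4, were only just above the negative controls, whose 99th percentile there was 125.8 and 130.5, so the size of its difference rests on the background step. It was -0.42 between irradiated groups with no background correction (adjusted p = 0.0259) and -0.092 with limma's own inference of the background (adjusted p = 0.0758), in a range of adjusted p of 0.00543 to 0.113 over 13 alternatives. With that inference it was -0.20 in irradiated against unirradiated wild type and -0.29 in the widest contrast. Runx3 was below the negative controls' 99th percentile on all 5 arrays, at deposited signals of 95.9 and 93.4 with the TRAF6 null label, 96.3 and 95.9 in irradiated wild type and 98.3 in unirradiated wild type. No fold is given for it.

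Satb1 organises chromatin loops in thymocytes and had log2 signals of 11.63 and 10.93 on the arrays labelled TRAF6 null, 12.21 and 11.98 on irradiated wild-type arrays and 12.52 on the unirradiated array. The groups did not overlap, and the arrays labelled TRAF6 null were lowest. On those arrays its detection p was 0.00864 and 0.01046, at deposited signals of 3161.7 and 2050. As that p is an average over probes, the row may join probes of unlike signal, which cannot be read singly here. The difference between irradiated groups was -0.82 ± 0.28 SE, with an interval of -1.54 to -0.11 before adjustment, and did not pass (adjusted p = 0.0663, limma). Irradiated against unirradiated wild type gave -0.42 ± 0.34 SE (adjusted p = 0.374), and in the widest contrast -1.24 ± 0.34 SE (adjusted p = 0.052).

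**Figure D2:**
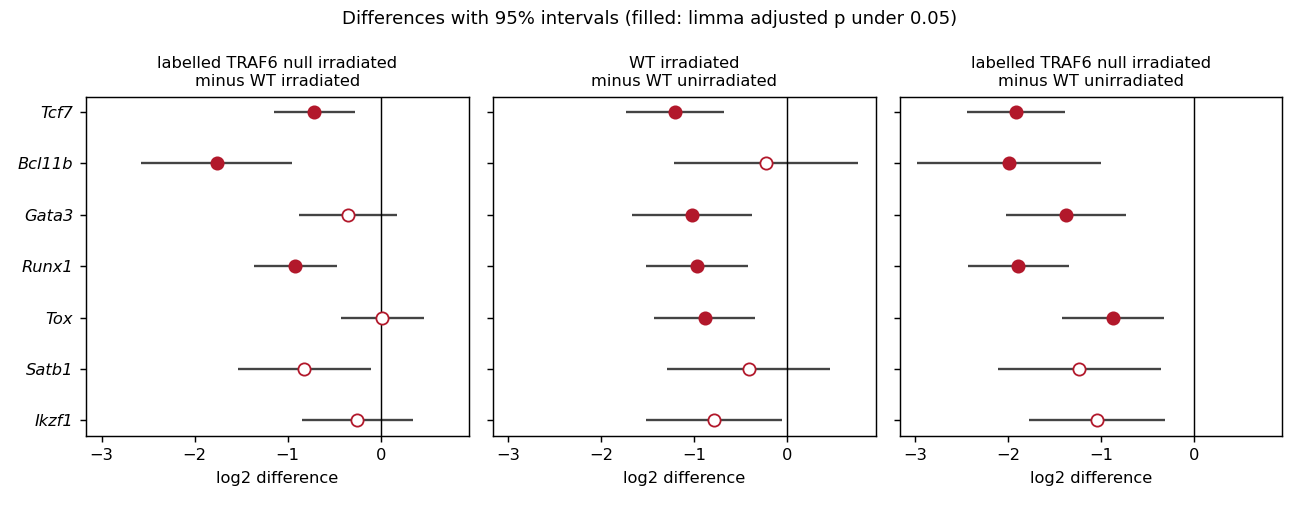
Log2 differences of the 7 tested factors are plotted with 95% intervals for the TRAF6 null label minus irradiated wild type (left), irradiated minus unirradiated wild type (middle) and the TRAF6 null label minus unirradiated wild type (right); filled points have a limma adjusted p under 0.05. Bcl11b lies at -1.76 in the left panel and at -0.23 in the middle one, and Tox at 0.016 and -0.89.

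The factors that fell between irradiated groups have promoter windows, each at a listed start, that differ in base composition and in the letters they hold. RefSeq's promoter table for GRCm38.p6 gives 250 bases before to 50 after a listed start for 8 of the 9 factors, and where it lists several starts the first was read. The 3 called factors and Runx3, the paralogue of Runx1 that was at background, are shown, each 5′ to 3′ on the gene's own strand. Capitals mark RUNX letters (TGTGGT, read here as ACCACA on the other strand) and Ikaros letters (TGGGAA). The windows are chr11:52282965-52283264 for Tcf7, chr12:108003365-108003664 for Bcl11b and chr16:92826025-92826324 for Runx1, all on the minus strand, and chr4:135120395-135120694 for Runx3 on the plus strand.
Tcf7: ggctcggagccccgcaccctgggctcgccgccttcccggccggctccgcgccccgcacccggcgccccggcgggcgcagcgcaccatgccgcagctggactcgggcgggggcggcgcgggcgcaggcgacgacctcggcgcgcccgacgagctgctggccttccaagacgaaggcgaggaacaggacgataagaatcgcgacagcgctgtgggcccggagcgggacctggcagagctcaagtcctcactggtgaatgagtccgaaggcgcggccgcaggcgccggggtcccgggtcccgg
Bcl11b: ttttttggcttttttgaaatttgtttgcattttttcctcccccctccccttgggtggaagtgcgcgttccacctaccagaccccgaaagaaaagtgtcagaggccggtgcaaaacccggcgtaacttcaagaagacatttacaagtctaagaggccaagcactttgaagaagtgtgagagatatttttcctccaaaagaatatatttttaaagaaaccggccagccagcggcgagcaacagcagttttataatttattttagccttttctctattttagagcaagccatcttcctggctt
Runx1: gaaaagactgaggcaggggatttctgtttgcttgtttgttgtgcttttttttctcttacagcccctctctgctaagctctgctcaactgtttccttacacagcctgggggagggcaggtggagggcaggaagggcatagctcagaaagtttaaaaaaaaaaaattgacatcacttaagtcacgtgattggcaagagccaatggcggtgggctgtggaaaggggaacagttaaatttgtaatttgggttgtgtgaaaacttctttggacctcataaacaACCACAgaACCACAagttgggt
Runx3: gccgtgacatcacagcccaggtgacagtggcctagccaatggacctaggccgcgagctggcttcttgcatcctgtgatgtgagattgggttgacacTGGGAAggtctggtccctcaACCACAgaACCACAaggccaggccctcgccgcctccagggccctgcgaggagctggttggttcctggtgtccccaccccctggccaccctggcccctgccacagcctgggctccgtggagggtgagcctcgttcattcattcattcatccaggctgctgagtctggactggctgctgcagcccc

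The Tcf7 window is 76.3% G and C and the Bcl11b window 43.0%, against a median of 52.7% over the 27025 promoters of the table. Both windows lie within their genes, which extend past the 5′ side of the window to 52283383 for Tcf7 and 108004145 for Bcl11b. The windows of Gata3 and Ikzf1 also lie within their genes. For these genes the bases before the gene's outermost start were not read. Of 4 motifs searched on both strands, RUNX letters TGTGGT were in 2 of the 8 factors' windows (Runx1 and Runx3, with 2 copies each) and in 16.9% of all promoters. TCF and LEF letters ACAAAG were in 1 of 8 (Ikzf1) and in 18.7% of all, Ikaros letters TGGGAA in 2 of 8 (Lef1 and Runx3) and in 25.5%, and GATA letters AGATAA in 0 of 8 and in 11.4%. In Runx1 and Runx3 the RUNX copies form one identical stretch, ACCACAGAACCACA. The copies begin at positions 29 and 37 in Runx1 and at -134 and -126 in Runx3, counted from 1 at the listed start. That stretch, chosen for a search after the windows had been read, was in 4 of 27025 promoters, those of Runx1, Runx2, Runx3 and Gm16225, a non-coding gene whose window overlaps that of Runx3. The row of Runx2, like that of Runx3, was below background on all 5 arrays.

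The regulators that work with these factors were examined as lists. Each count below is to be read against all rows tested, of which 22.9% were lower and 20.9% higher between irradiated groups, 17.6% and 18.5% in irradiated against unirradiated wild type, and 14.9% and 13.5% in the widest contrast, with medians of -0.027, 0.051 and -0.025. No count is taken as particular to its list. Of 17 tested of 20 listed partner regulators of T cell development, 5 fell with the TRAF6 null label against irradiated wild type and 0 rose, also at an unadjusted p under 0.05, with a median of -0.23. The largest falls were in Notch1, the receptor that starts the T cell programme (-1.44 ± 0.16 SE, adjusted p = 0.005, limma), its target Hes1 (-1.33, adjusted p = 0.011), the early response gene Egr1 (-1.26, adjusted p = 0.0114) and Zbtb17 (-0.99, adjusted p = 0.0497), which encodes the zinc finger protein Miz-1. Notch1 and Hes1 were the 2 largest rises of this list in irradiated against unirradiated wild type, at 1.28 (adjusted p = 0.0122) and 1.93 (adjusted p = 0.0104), where the list had 4 higher and 3 lower and a median of -0.19. Tcf7 and Gata3, which Notch signalling induces in progenitors, were lower in that comparison. In the widest contrast 5 fell and 1 rose with a median of -0.40, or -0.37 with dim genes at their bound, and Gfi1, a transcriptional repressor, was among the falls (-1.67, adjusted p = 0.0444). Without either irradiated wild-type array the count of falls between irradiated groups was 0 and 1, and it was 8 without the first TRAF6 null array and 8 in the authors' matrix. Irradiated against unirradiated wild type had 0 calls of this list without either irradiated wild-type array, and 7 fell without either TRAF6 null array. Across the widest contrast 1 fell without either irradiated wild-type array and 9 without the first TRAF6 null array.

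Relatives of the factors were mostly dim, and 3 of 14 listed were tested. Ikzf2, which encodes Helios of the Ikaros family, fell with the TRAF6 null label against irradiated wild type (-1.04, adjusted p = 0.0081, limma) and in the widest contrast (-1.58, adjusted p = 0.0101). Gata2, a factor of blood progenitors and mast cells, was at least 1.49-fold higher in irradiated than in unirradiated wild type (adjusted p = 0.0181), the unirradiated array being at background. Neither irradiated wild-type array could be left out without the loss of the Ikzf2 call between irradiated groups and of the Gata2 call.

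Cofactors moved in both directions, with 4 of 13 tested lower and 2 higher with the TRAF6 null label against irradiated wild type and a median of -0.42. With no background correction 7 were lower and 2 higher, and in the authors' matrix 7 were lower and 1 higher. Ikaros and Bcl11b both recruit the NuRD complex, and its helicase gene Chd4 fell (-1.08, adjusted p = 0.00731, limma) and so did Mbd3 (-0.74, adjusted p = 0.0244), while the histone-binding subunits Rbbp7 (1.38, adjusted p = 0.0131) and Rbbp4 (1.37, adjusted p = 0.00528) rose. Rbbp7 and the subunit gene Gatad2b were the largest calls in irradiated against unirradiated wild type, at -1.42 (adjusted p = 0.0252) and 1.28 (adjusted p = 0.0141), where 2 cofactors were lower, 2 higher and the median was -0.017. In the widest contrast 2 fell, Hdac2 (-1.55, adjusted p = 0.0143) and Mbd3 (-1.42, adjusted p = 0.0136), 0 rose (1 at an unadjusted p under 0.05) and the median was -0.21. In each of the 3 comparisons 0 cofactors were called without either irradiated wild-type array.

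Of the genes that make a T cell's receptor and its signalling, many of which these factors help switch on, 16 of 20 listed were tested. Between irradiated groups 0 fell and 2 rose with the TRAF6 null label (3 and 3 at an unadjusted p under 0.05), with a median of -0.091. The 2 were the costimulatory receptor Cd28 (2.07, adjusted p = 0.00519, limma) and Cd247, the zeta chain of the T cell receptor complex (1.35, adjusted p = 0.0355). The absence of falls depended on the scaling, with 4 lower in the authors' matrix and 2 with median scaling, and 1 rose with limma's own inference of the background and with no detection filter. Cd3e, the epsilon chain of that complex, had a log2 signal of 11.61 and 11.47 on the arrays labelled TRAF6 null and 11.57 and 11.49 on irradiated wild-type arrays, and the groups overlapped (0.0056 ± 0.15 SE, adjusted p = 0.979). Against unirradiated wild type, 6 of 16 fell in irradiated wild type with a median of -1.47, led by Dntt, which adds bases to receptor joins (-4.38, adjusted p = 0.0161), and Themis, a signalling protein of positive selection (-3.83, adjusted p = 0.00669). The widest contrast had 7 falls with a median of -1.45, led by Dntt (-5.04, adjusted p = 0.0151) and the recombinase gene Rag1 (-4.61, adjusted p = 0.0251), and 0 rises. The count of T cell genes that fell between irradiated groups was 6 without the first TRAF6 null array, and the count that rose was 1 without either irradiated wild-type array. The falls numbered 13 in irradiated against unirradiated wild type without either TRAF6 null array and 0 without either irradiated wild-type array, and they numbered 11 in the widest contrast without the first TRAF6 null array.

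Factors of progenitors and of other lineages are normally silenced as T cells commit, and 8 of 16 listed were tested. Between irradiated groups 2 of the 8 rose and 1 fell with the TRAF6 null label, with a median of 0.061. The balance turned with the setting, to 1 higher and 3 lower in the authors' matrix and to 1 higher and 2 lower with median scaling, with limma's own inference of the background and with no detection filter. Zbtb16, which encodes PLZF and is known for innate-like T cells and innate lymphoid precursors, rose by 1.64 (adjusted p = 0.00456, limma), and Hhex, a homeobox gene of progenitors, by 0.85 (adjusted p = 0.0297). Cebpb, a myeloid and stress-induced factor, fell by 0.96 (adjusted p = 0.0171). Against the unirradiated array 5 rose and 0 fell in irradiated wild type with a median of 1.03, or 0.59 with genes dim on the unirradiated array at their bound. Cebpb led (2.98, adjusted p = 0.00601). Of the 8 differences, 3 here and 4 in the widest contrast rest on genes at background on the unirradiated array. The filter admits such genes but none detected only on that array, so neither count can show a loss of that kind. The widest contrast had 6 rises and 0 falls with a median of 1.08, or 0.77 at the bound, and Zbtb16 was at least 2.99-fold higher (adjusted p = 0.00889) and Cebpb was higher by 2.02 on the log2 scale (adjusted p = 0.0101). Without the first irradiated wild-type array 1 rose and 0 fell between irradiated groups, without the second 0 rose and 0 fell, and without the first TRAF6 null array 1 rose and 2 fell. Without either irradiated wild-type array the rises numbered 0 in irradiated against unirradiated wild type and 2 in the widest contrast.

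**Figure D3:**
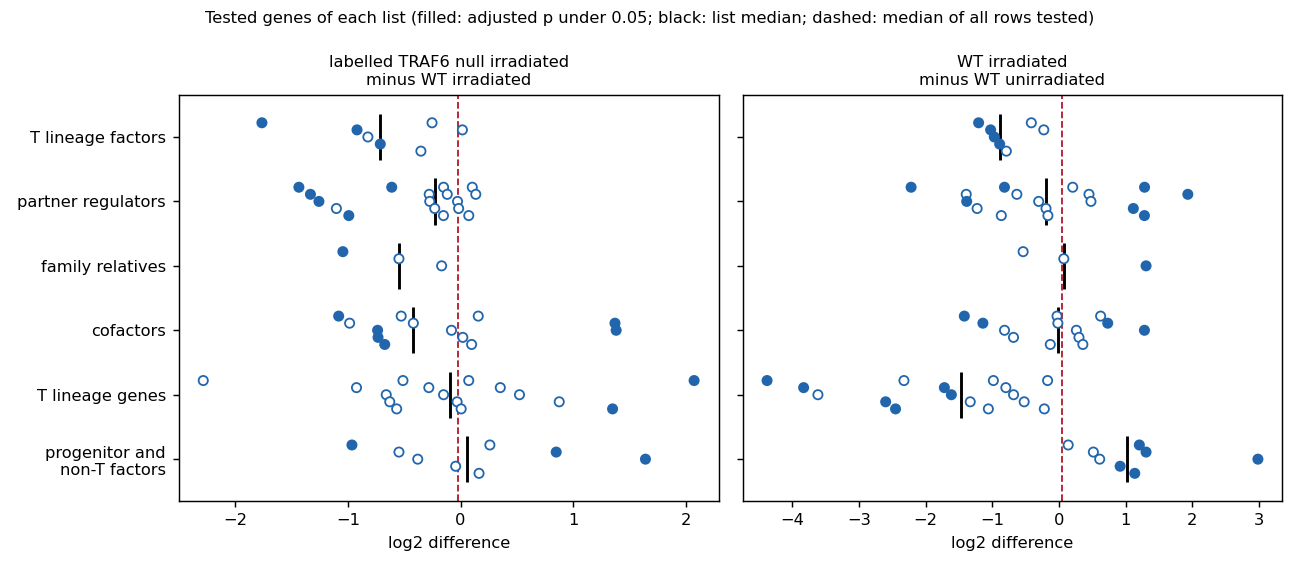
Each point is a tested gene of one list, placed by its log2 difference for the TRAF6 null label minus irradiated wild type (left) and irradiated minus unirradiated wild type (right); filled points have an adjusted p under 0.05, black bars are list medians, and the dashed line is the median of all rows. In the left panel the T lineage factors have a median of -0.71 and the T lineage genes one of -0.091, and in the right panel the medians are -0.89 and -1.47.

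Markers of the cells that could carry these transcripts are given beside these results, and their part in the factors' differences was not tested. The background-corrected signal summed over 10 thymocyte markers was 11464 and 8385 on the arrays labelled TRAF6 null, 17167 and 12389 on irradiated wild-type arrays and 34482 on the unirradiated array. The groups stood in the same order as for Tcf7, Runx1, Bcl11b, Gata3 and Satb1, with 7 to 9 of the 10 above background on an array and Cd8a below it on all. Single markers did not all follow the sum, and 5 of the 8 tested had a negative difference between irradiated groups. Cd1d1 was at log2 8.81 and 9.115 with the TRAF6 null label and 8.75 and 8.459 in irradiated wild type. Of 8 tested thymocyte markers, 0 were called between irradiated groups by limma (median -0.57, with 3 lower at an unadjusted p under 0.05), 3 fell in irradiated against unirradiated wild type and 5 in the widest contrast. The first of these counts was 4 lower without the first TRAF6 null array, 3 in the authors' matrix and 2 with median scaling, and the second was 0 without either irradiated wild-type array and 6 without either TRAF6 null array. Over 6 markers of innate lymphoid and NK cells, which also use Gata3, Tcf7 and Zbtb16, the sum was 1958 and 2606 with the TRAF6 null label, 726 and 938 in irradiated wild type and 915 in unirradiated wild type. The defining markers Ncr1, Eomes and Il1rl1 were below background on all 5 arrays, and 2 or 3 of the 6 were above it. Nkg7 made up most of the sum, at log2 10.62 and 11.12 with the TRAF6 null label and 9.298 and 9.743 in irradiated wild type.

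Over 6 markers of medullary epithelium the sum was 2536 and 6233 with the TRAF6 null label, 20181 and 20962 in irradiated wild type and 5397 in unirradiated wild type. There 3 of the 6 were above background with the TRAF6 null label and 5 on each wild-type array, and Epcam was below it on all arrays. Over 7 macrophage markers, all above background, the sum was 11179 and 16004 with the TRAF6 null label, 10986 and 10916 in irradiated wild type and 3061 in unirradiated wild type. These markers moved in both directions between irradiated groups, with 1 called lower and 1 higher by limma and 2 of the 7 differences negative. Cd14 was at log2 8.77 and 9.36 with the TRAF6 null label and 10.31 and 10.85 in irradiated wild type. Csf1r was at 8.68 and 9.21 against 7.66 and 7.54. Over 5 fibroblast markers, of which 3 or 4 were above background, the sum was 6597 and 7726 with the TRAF6 null label, 2292 and 2382 in irradiated wild type and 1555 in unirradiated wild type. Over 7 dendritic cell markers the sum was 175 and 190 with the TRAF6 null label, 1665 and 1826 in irradiated wild type and 357 in unirradiated wild type, with 2 to 4 above background and Itgax, Flt3 and Clec9a below it on all arrays. Fscn1 made up most of the irradiated wild-type sum, at log2 10.53 and 10.67 against 5.93 and 6.09 with the TRAF6 null label. Of 3 tested dendritic cell markers, 2 were called lower and 0 higher between irradiated groups by limma. The other, Zbtb46, was at 6.34 and 5.94 with the TRAF6 null label and 5.97 and 5.84 in irradiated wild type. B cells also express Ikzf1, and over 4 of their markers the sum was 738 and 654 with the TRAF6 null label, 212 and 189 in irradiated wild type and 519 in unirradiated wild type, with 1 to 3 above background and Ms4a1 below it on all arrays. Over 5 adipocyte markers it was 6355 and 7887 with the TRAF6 null label, 2900 and 2924 in irradiated wild type and 1500 in unirradiated wild type, with 3 above background on each array and Fabp4 and Plin1 below it on all. The factors are read against all transcripts of an array, and the part of these shifts in their values was not tested.

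Among themselves the factors were most alike in pairs. With each gene centred on its mean over the 5 arrays, the root mean square difference in log2 signal was smallest between Gata3 and Ikzf1 (0.137) and next between Tcf7 and Runx1 (0.164), and it was largest between Bcl11b and Tox (0.881). The tested rows most like each factor by the same measure were Hnrnpr for Tcf7 (0.087), after an unnamed Riken row (0.0576), and Ppp1r16b for Bcl11b (0.152), after a row listed as Tactile-pending (0.143). Those nearest to Runx1 were Gemin4 (0.0796) and Fam169b (0.0853), and those nearest to Tox were Rnf141 (0.0403) and Ywhaq (0.0432). Satb1 lay nearest to Lman2l (0.0642) and Hdac7 (0.0683), and Ikzf1 to Tuba4a (0.0447) and Zap70 (0.0457), the T cell receptor kinase. Both rows nearest to Gata3 (0.0522 and 0.0788) are listed under provisional identifiers without a gene name here. With 5 arrays, of which 4 are irradiated, these are descriptions of shape over few points.

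**Figure D4:**
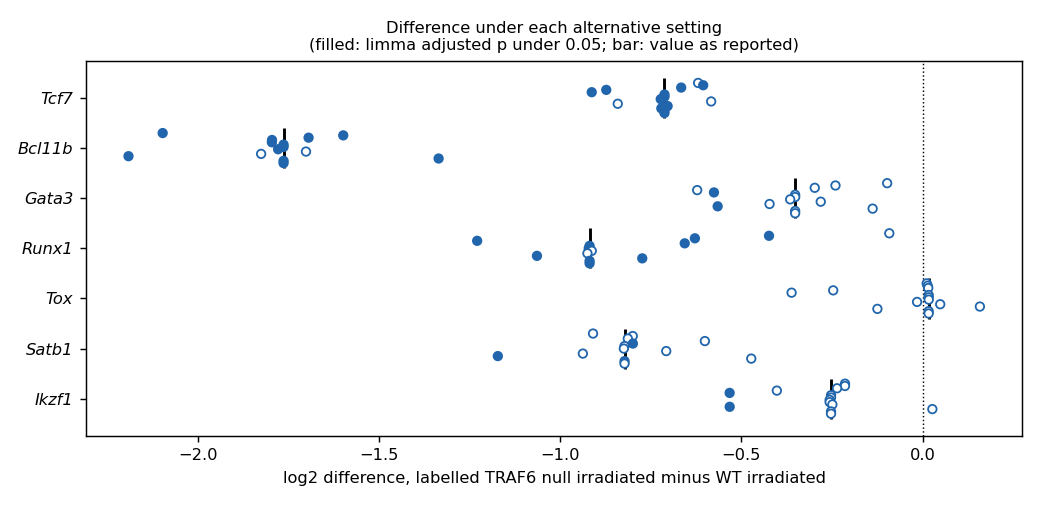
Each point is the log2 difference of a factor between the TRAF6 null label and irradiated wild type under one alternative setting or with one array left out; filled points have a limma adjusted p under 0.05 and bars mark the values reported above. Bcl11b stayed between -2.19 and -1.34, Tcf7 between -0.91 and -0.58 and Runx1 between -1.23 and -0.092, while Tox lay on both sides of 0, between -0.36 and 0.16.

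The plot of alternatives shows how each difference between irradiated groups moved with the setting. Among the alternatives, the fit of only the 2 groups compared repeats the reported values, because the lone unirradiated array adds no spread. Bcl11b passed under 12 of 14 alternatives, Tcf7 under 11 of 14 and Runx1 under 10 of 13. Satb1, just short of the threshold as reported, passed under 3 of 13. Tox passed under 0 of 14, with adjusted p-values of 0.101 to 0.976.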

How the data were processed

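The deposited mouse table gives 4 columns for each gene row and array, per the file headers. They are a linear intensity averaged over beads, the standard error of that intensity, how many beads were read, and a detection p-value. The labels name Trizol extraction, biotin label and Illumina's standard labelling. The software and the probe annotation are not given in the sources used here. The deposited detection p-values had been averaged over the probes of a gene. The authors' matrix holds the same intensities, linear and not centred, times 1 constant per array, 0.925 and 0.956 for the TRAF6 null label, 1 and 1.04 for irradiated and 0.899 for unirradiated wild type; how the constants were chosen stays unknown. Its array medians were 103.9 and 110.3 with the TRAF6 null label, 116.8 and 119.7 in irradiated and 102.4 in unirradiated wild type.

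From the intensities, the level and SD of the unseen negative controls were estimated per array. Detection p-values from 0.02 to 0.98 that are whole multiples of 1 part in 936 were taken where at least 10 rows shared one, and the median signal of those rows was regressed on the normal quantile. Signals were corrected by normexp with offset 16, quantile-normalized and taken to log2. A first estimate that used every detection p was replaced after its SDs had been seen. One limma 3.58.1 model in R 4.3.3 fitted 1 mean per group over all 5 arrays (2 residual and 2.89 prior degrees of freedom), two-sided, with Benjamini-Hochberg adjustment over 11563 rows. The offset pulls folds of dim genes towards 1. The script was tested on simulated data. A gene dim on all arrays of one group has only a bound on its fold, the bright group's mean against the lowest signal above background or the dim signal, whichever is higher.

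The members and lists were chosen with earlier results of these data known. Named from each list were up to 4 called genes with the largest difference between irradiated groups and up to 2 in each other comparison. One gene that this rule names is not reported here. For likeness the 2 nearest rows were named. Current names came through RefSeq symbols (16222 rows) and synonyms (5684), and 118 rows fitted several genes. Deviations of same-numbered arrays correlated at 0.0314 over all rows tested (2 pairs), and the replicate number was left out of the model. That value does not exclude shared deviations in single genes. With the replicate number as a block, the SE was 0.25 for Bcl11b and 0.22 for Satb1, against 0.31 and 0.28 as reported. Satb1 then passed (adjusted p = 0.0289, limma). For Tcf7, Gata3, Runx1, Tox and Ikzf1 the SE was larger with the block. H1299 arrays were not used here.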

Additional observations from a re-analysis of the deposited data

How the results depend on the processing

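Over the 3 comparisons, 274 recomputed differences of the 7 tested factors were obtained, and 216 kept their direction and side of the threshold, 30 lost the call, 23 gained it and 5 changed sign. The sign changed for Tox between irradiated groups, to -0.25 with median scaling, -0.36 in the authors' matrix, -0.015 without the first irradiated wild-type array and -0.12 without the second TRAF6 null array, in a range of -0.12 to 0.16 with 1 array left out. It also changed for Ikzf1, to 0.027 without the second TRAF6 null array, in a range of -0.53 to 0.027. The cause was not tested. The 274 differences do not all come from separate fits. Between irradiated groups the fit of only the 2 groups compared repeats the reported one. In irradiated against unirradiated wild type that fit gives the same values as the fits without either TRAF6 null array. In the widest contrast it gives the same values as the fits without either irradiated wild-type array.

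Between irradiated groups the number of factors called was 3, and it was 1 with limma's own inference of the background, 6 in the authors' matrix and 0 to 6 with 1 array left out. With the replicate number as a block it was 4. The block also gave 2 falls and 3 rises of T cell genes and 2 falls of thymocyte markers, against 0, 2 and 0 as reported. Of all rows 5058 were called, against 2951 with limma's own inference, 5000 with the block and 608 to 6096 with 1 array left out. In irradiated against unirradiated wild type 4 factors were called, against 2 in the authors' matrix and 0 to 5 with 1 array left out. All rows called numbered 4177, against 2763 with limma's own inference, 6376 in a fit of only the 2 groups compared and 0 to 6376 with 1 array left out. In the widest contrast 5 factors were called, against 2 in a fit of only the 2 groups compared and 2 to 7 with 1 array left out. All rows called numbered 3293, against 1831 with limma's own inference, 877 in a fit of only the 2 groups compared and 877 to 5023 with 1 array left out. A lone array left in a group was assumed to vary like the others.

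Scaling moved the median of all rows between irradiated groups to -0.26 in the authors' matrix and -0.19 with median scaling, and the factors' median relative to it was -0.40 and -0.43, against -0.69 as reported. Calls there split into 2412 higher and 2646 lower as reported, 1233 higher and 4340 lower in the authors' matrix and 1957 higher and 3419 lower with median scaling. In irradiated against unirradiated wild type the matrix gave 3307 higher and 1502 lower, against 2144 and 2033 as reported, with a median of 0.24. The negative controls from every detection p, an alternative chosen after seeing the data, gave 3, 4 and 5 factors called in the 3 comparisons. Signal over background limits Lef1 and Runx3, and the sizes for Runx1, Gata3 and Tox.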
